A study of Mus musculus with 20 samples.

Results

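The genes described here are the 44 that build, attach and read N-linked glycans in the endoplasmic reticulum (ER). They were selected by gene symbol as members of the pathway. The rule used no measured value, but it was made with earlier results of these data known. All 44 were on the array, each with 1 probeset, among 22180 genes measured. Liver RNA came from adult male mice of strain C57Bl6 as labelled (C57BL/6J in the study's methods) that were wild type (WT) littermates or lacked Nfil3 (Nfil3-/-, here NFIL3 KO), the gene of a transcriptional repressor. Each mouse received 1 intraperitoneal injection of tunicamycin at 1 μg per g of body weight, or of the 150 mM dextrose vehicle, and livers were taken 8 h later. The 4 groups, WT vehicle, WT tunicamycin, NFIL3 KO vehicle and NFIL3 KO tunicamycin, had 5 mice each on arrays, with 1 array per mouse. The study's methods give 8 mice per group for this experiment and do not say how the 5 were chosen. The knockout is not restricted to hepatocytes as far as the sources used here state, and whole liver was measured, so that fewer cells of a type and less RNA per cell cannot be told apart. Levels are log2 signals, and every difference given is a log2 difference of group means ± the standard error (SE) of the fit. A gene was called when its p-value in limma, adjusted over all 22180 genes, was under 0.05.

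In N-glycosylation, an oligosaccharide is assembled sugar by sugar on the lipid dolichol phosphate, at first on the cytosolic face of the ER membrane and then in its lumen. Oligosaccharyltransferase moves the finished glycan onto asparagines of nascent proteins. Glucosidases then trim its glucoses, and the lectins calnexin and calreticulin hold glycoproteins that carry a single glucose until they are folded, with UDP-glucose:glycoprotein glucosyltransferase adding a glucose back to misfolded ones. Tunicamycin blocks the enzyme made by Dpagt1, which puts the first N-acetylglucosamine phosphate on dolichol phosphate. Hepatocytes secrete most plasma glycoproteins and depend on the pathway for them.

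Most of the pathway rose with tunicamycin in both genotypes. In WT livers, 30 of the 44 genes rose and 4 fell, where 13.7% of all genes rose and 13.7% fell. In NFIL3 KO livers, 30 rose and 4 fell, where 13.5% of all genes rose and 13.7% fell. The median difference of the 44 genes was 0.64 in WT and 0.70 in NFIL3 KO livers, beside -0.03 over all genes in either genotype. For 31 of the 44 genes every WT tunicamycin liver lay above every WT vehicle liver, as for 11.7% of all genes. The same was true of 28 genes in NFIL3 KO livers, as for 10.3% of all genes. The test called 28 genes as risen in both genotypes and Mpi, Pmm2 and Dolk as fallen in both, and no gene was called in opposite directions. A further 6 genes passed the test in a single genotype, and the test of a difference in response called none of them (Alg2 0.49 in WT and 0.33 in NFIL3 KO, Ganab 0.39 and 0.21, Alg13 0.19 and 0.35, Alg9 0.23 and 0.31, Dpm3 -0.43 and -0.25, Srd5a3 -0.11 and -0.30). Over the 44 genes, the responses of WT and NFIL3 KO livers, which share no array, had a Pearson r of 0.97 and a Spearman rho of 0.95 (across genes, which are not independent replicates).

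**Figure D1:**
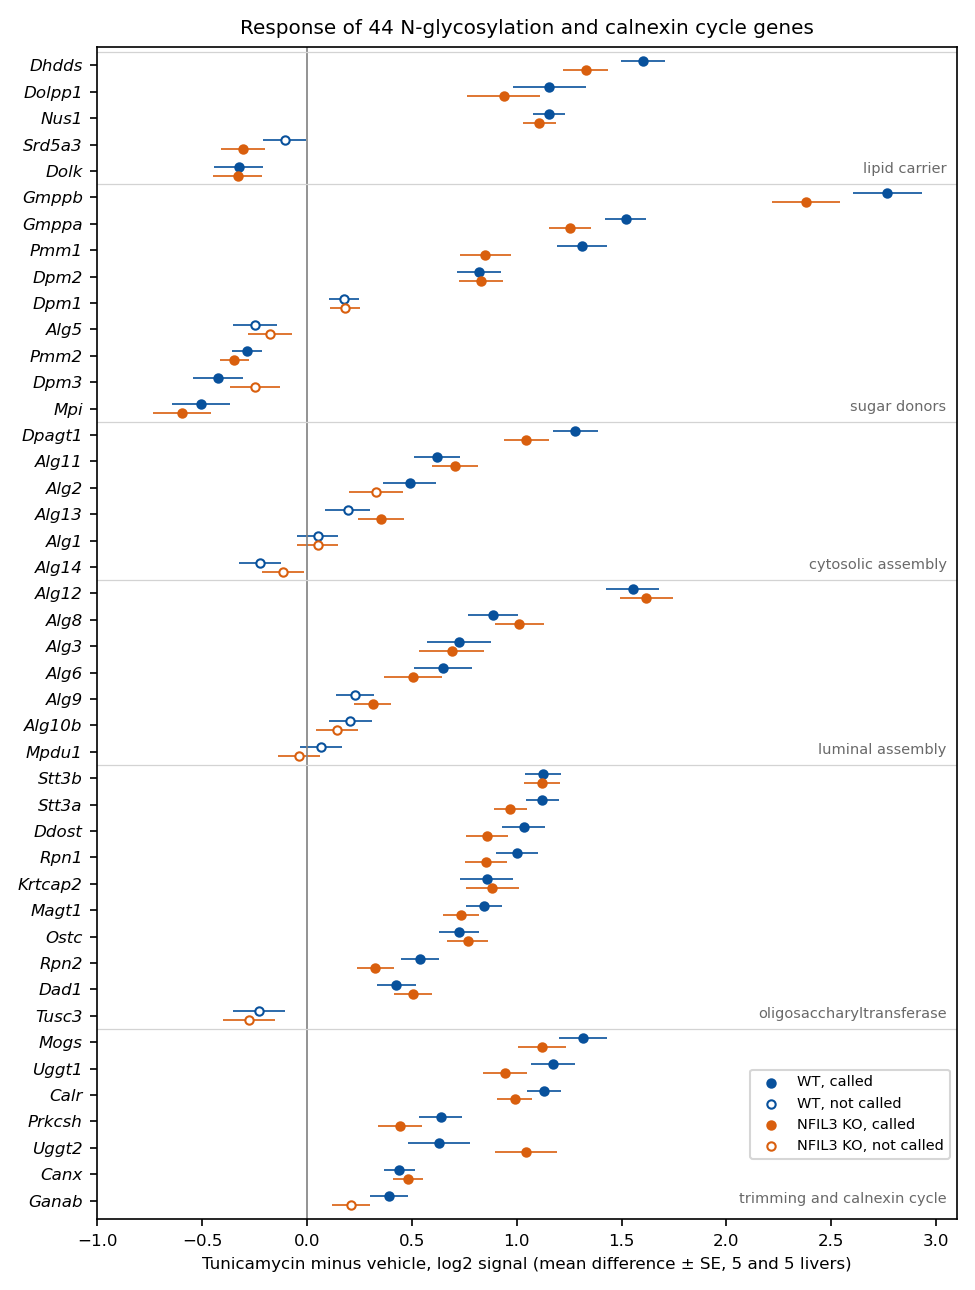
Difference between tunicamycin and vehicle (log2 signal, x axis) for each of the 44 genes (y axis, grouped by role) in WT (blue) and NFIL3 KO livers (orange), with 5 livers per group and bars for the SE. Filled points were called by the test: 30 genes rose and 4 fell in each genotype, Gmppb stands farthest to the right, and Mpi is the lowest point.

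Liver identity and labels were checked first. The hepatocyte genes Alb, Ttr, Cps1, Serpina1c, Tat, Cyp2e1, Fgb and Apoa1 averaged 12.16 to 13.55 in WT vehicle livers, and a further marker, Ass1, averaged 6.14. Of these 9, Tat rose and Apoa1 and Ttr fell in both genotypes. The level of Nfil3 was 6.25, 5.79, 6.95, 6.71 and 6.50 in WT vehicle livers and 5.70, 5.53, 5.35, 5.30 and 5.18 in NFIL3 KO vehicle livers, and 7.95, 8.55, 7.67, 7.42 and 8.38 in WT tunicamycin livers and 5.99, 4.95, 5.07, 4.83 and 5.40 in NFIL3 KO tunicamycin livers. Every NFIL3 KO liver lay below every WT liver of its treatment, and the difference was called with tunicamycin (-2.75 ± 0.23, adjusted p = 4.09e-07) but not with vehicle (-1.03 ± 0.23, adjusted p = 0.227). Whether its probes lie in the deleted part is not given in the sources used here. Of 8 Kupffer cell markers, Marco (1.59 ± 0.40) and Adgre1 (0.62 ± 0.19) rose in WT livers and none was called in NFIL3 KO livers, with the log2 of their summed signal between 10.00 and 11.12 in WT vehicle, 10.41 and 10.78 in WT tunicamycin, 10.53 and 10.81 in NFIL3 KO vehicle and 10.07 and 10.83 in NFIL3 KO tunicamycin livers. Of 7 sinusoidal endothelial markers, 3 fell in WT and 2 in NFIL3 KO livers, and none rose, with sums between 11.08 and 11.41, 10.85 and 11.24, 11.19 and 11.36, and 11.01 and 11.21 in the same order of groups. Of 7 stellate cell markers, 1 (Col3a1) fell in each genotype, and of 4 cholangiocyte markers, 1 (Sox9) fell in WT livers. No T cell, B cell, neutrophil or erythroid marker was called in either genotype. All of them averaged below the median of all genes (5.01) in WT vehicle livers. The 6 neutrophil markers averaged 2.64 to 4.19, T cell markers 3.84 to 4.77 and B cell markers 3.92 to 4.86. Of 4 erythroid markers listed, only Slc4a1 was measured (4.68), and of 4 B cell markers, 3 were. At such low signals the lack of calls does not show that these cells were unchanged. The part of the cell types named here in the values below was not tested.

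Dpagt1 makes the enzyme that tunicamycin inhibits, and its RNA rose. Its probeset (17516546, on chromosome 9) read 8.27, 8.00, 8.26, 8.33 and 8.42 in WT vehicle and 9.65, 9.66, 9.32, 9.52 and 9.53 in WT tunicamycin livers. In NFIL3 KO livers it read 8.02, 8.45, 8.43, 8.18 and 8.28 with vehicle and 9.21, 9.24, 9.12, 9.54 and 9.47 with tunicamycin. The treated livers did not overlap the vehicle livers in either genotype. Dpagt1 rose by 1.28 ± 0.11 in WT livers (2.43-fold, adjusted p = 2.91e-09) and by 1.05 ± 0.11 in NFIL3 KO livers (2.06-fold, adjusted p = 6.88e-08).

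Dpagt1 begins the cytosolic stage of the assembly line, where 6 genes were measured and 3 were called in each genotype, all as risen. Alg11, which adds the last mannoses on the cytosolic face, rose by 0.62 ± 0.11 in WT and by 0.71 ± 0.11 in NFIL3 KO livers. The mannosyltransferase gene Alg2 rose in WT livers (0.49 ± 0.13, adjusted p = 0.00485), and its difference in NFIL3 KO livers was not called (0.33 ± 0.13, adjusted p = 0.061). Alg13 and Alg14 make the subunits of the transferase that adds the other N-acetylglucosamine. Alg13, the catalytic one, was called in NFIL3 KO livers (0.35 ± 0.11, adjusted p = 0.0168), a call that was lost without NFIL3 KO tunicamycin replicate 4 (adjusted p = 0.0561), while Alg14, its membrane anchor, had differences of -0.22 and -0.12 and was called in neither. Alg1, which adds the first mannose, had a difference of 0.05 in each genotype and was not called. Within this short sequence of reactions, then, the step that tunicamycin blocks had the largest rise and Alg1, a few steps on, one of the smallest differences of all 44 genes.

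The luminal enzymes complete the glycan with mannoses (Alg3, Alg9, Alg12) and glucoses (Alg6, Alg8, Alg10b), and 4 of these 7 genes rose in WT and 5 in NFIL3 KO livers, with none fallen. Alg12 led them. It read 7.24, 6.999, 7.27, 7.47 and 7.13 in WT vehicle and 8.68, 8.89, 8.62, 8.87 and 8.81 in WT tunicamycin livers, and 6.87, 7.25, 7.29, 6.69 and 7.41 in NFIL3 KO vehicle and 8.64, 8.71, 8.54, 8.95 and 8.77 in NFIL3 KO tunicamycin livers. The lowest treated liver was more than 1 log2 unit above the highest vehicle liver in both genotypes, with a rise of 1.55 ± 0.12 in WT (adjusted p = 1.37e-09) and 1.62 ± 0.12 in NFIL3 KO livers (adjusted p = 8.23e-10). Among the glucosyltransferases, Alg8 (0.89 in WT and 1.01 in NFIL3 KO) and Alg6 (0.65 and 0.50) rose, while Alg10b, for the last glucose, had 0.21 and 0.14 and was not called. Of the mannosyltransferases, Alg3 rose by 0.72 ± 0.15 and 0.69 ± 0.15, whereas Alg9, which acts between Alg3 and Alg12, differed by 0.23 in WT (adjusted p = 0.061, not called) and 0.31 in NFIL3 KO livers (adjusted p = 0.00949). Mpdu1, needed for the use of dolichol-linked mannose and glucose, had differences of 0.07 and -0.04 and was not called.

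Promoter sequence of the genes was then read from RefSeq (mouse build GRCm38.p6), from 250 bases before to 50 after each start site, and 38 of the 44 genes had a window. Dpagt1, Gmppb, Alg2, Alg11, Ostc and Tusc3 had no window and were not searched. The ER stress response element (ERSE), bound by ATF6 with NF-Y, was searched on both strands as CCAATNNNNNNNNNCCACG, in which N is any base. It was found in the windows of 3 genes, Alg12, Calr and Canx, and in 0.119% of all 32851 promoter windows. The shorter ERSE-II, searched as ATTGGNCCACG, was found in the window of Krtcap2 and in 0.0365% of windows. Neither TGACGTGG, a core bound by ATF6 and XBP1 (in 0.676% of windows), nor TGATGNAA, a core of the amino acid response element bound by ATF4 and CHOP (in 3.97%), was found in a member's window. With 38 genes searched, the lack of a match to TGACGTGG or TGATGNAA does not set the genes apart from others. A match is a description of these letters and not a measured site. The stretches around the 3 ERSE matches are shown because these genes span both the assembly of the glycan and its reading by lectins, with the match in capitals, 5′ to 3′ on the strand of the gene, which is the minus strand for all 3 genes. In Calr the match reads in the reverse orientation.
Alg12, chr15:88819480-88819568, match at -220 to -202 from the start site: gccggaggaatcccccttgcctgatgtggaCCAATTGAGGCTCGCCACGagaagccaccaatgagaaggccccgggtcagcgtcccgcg
Calr, chr8:84847035-84847133, match at -162 to -144: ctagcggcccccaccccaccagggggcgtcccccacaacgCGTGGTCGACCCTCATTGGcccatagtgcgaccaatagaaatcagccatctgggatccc
Canx, chr11:50325760-50325858, match at -145 to -127: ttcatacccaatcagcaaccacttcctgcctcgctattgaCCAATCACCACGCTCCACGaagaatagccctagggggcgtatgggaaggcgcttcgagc
All 3 genes rose in both genotypes, with rises in WT livers of 1.55 for Alg12, 1.13 for Calr and 0.44 for Canx, so that genes with the element lay both among the larger and among the smaller rises.

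The genes that supply activated sugars were divided. Of 9 genes, 4 rose and 3 fell in WT livers, and 4 rose and 2 fell in NFIL3 KO livers, with medians of 0.17 and 0.18. Gmppb makes the catalytic subunit of GDP-mannose pyrophosphorylase, and its probeset (17521603, on chromosome 9) had the largest rise in either genotype. Gmppb read 6.25, 5.40, 6.12, 6.19 and 6.34 in WT vehicle and 8.90, 8.94, 8.93, 8.62 and 8.73 in WT tunicamycin livers. The NFIL3 KO livers read 5.97, 5.96, 6.26, 6.12 and 6.36 with vehicle and 8.56, 8.40, 7.98, 8.78 and 8.85 with tunicamycin. No treated liver was within 1 log2 unit of a vehicle liver of its genotype, and the rise was 2.77 ± 0.16 in WT (6.81-fold, adjusted p = 1.04e-11) and 2.38 ± 0.16 in NFIL3 KO livers (5.2-fold, adjusted p = 1.5e-10). WT vehicle replicate 2 was low at 5.40, beside 6.12 to 6.34 in the other 4 livers of its group.

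Gmppa, the regulatory partner of Gmppb, rose as well. Its levels were 8.04, 7.88, 8.11, 8.05 and 8.29 in WT vehicle and 9.45, 9.62, 9.58, 9.65 and 9.64 in WT tunicamycin livers, against 7.89, 8.09, 8.22, 7.82 and 8.31 with vehicle and 9.35, 9.33, 9.14, 9.42 and 9.37 with tunicamycin in NFIL3 KO livers. With tunicamycin, all 5 NFIL3 KO livers lay below all 5 WT livers, a difference of -0.27 that was not called (adjusted p = 0.41). Among the genes of the pathway, Rpn2 alone separated in the same way (-0.20, adjusted p = 0.512, not called), and none separated the other way. How many of all genes did so was not counted, so these separations do not show an effect of genotype. Gmppa rose by 1.52 ± 0.10 in WT and by 1.25 ± 0.10 in NFIL3 KO livers.

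The phosphomannomutases moved in opposite directions. Pmm2 is the enzyme that converts mannose-6-phosphate to mannose-1-phosphate for glycan synthesis, and Pmm1 is its paralog. Pmm1 read 5.31, 5.38, 5.36, 5.35 and 5.44 in WT vehicle and 6.18, 6.72, 6.97, 6.75 and 6.77 in WT tunicamycin livers, and 5.37, 5.12, 5.22, 5.33 and 5.09 in NFIL3 KO vehicle and 6.19, 5.87, 6.09, 6.35 and 5.88 in NFIL3 KO tunicamycin livers. Pmm2 read 8.90, 8.81, 8.86, 8.89 and 9.01 with vehicle and 8.54, 8.64, 8.73, 8.56 and 8.56 with tunicamycin in WT livers, and 8.87, 8.88, 8.81, 8.86 and 8.84 with vehicle and 8.47, 8.48, 8.48, 8.56 and 8.53 with tunicamycin in NFIL3 KO livers. For both genes, vehicle and tunicamycin livers stood apart in each genotype, with the treated livers above for Pmm1 and below for Pmm2. Pmm1 rose by 1.31 ± 0.12 in WT and 0.85 ± 0.12 in NFIL3 KO livers, and Pmm2 fell by 0.29 ± 0.07 (adjusted p = 0.00261) and 0.35 ± 0.07 (adjusted p = 0.000395).

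Mpi, which makes mannose-6-phosphate from fructose-6-phosphate and so stands just before the mutases, had the largest fall of the 44 genes. It read 6.57, 6.58, 6.76, 6.98 and 6.88 in WT vehicle and 6.01, 6.14, 6.59, 6.39 and 6.11 in WT tunicamycin livers. In NFIL3 KO livers it read 6.45, 6.47, 6.79, 6.64 and 6.85 with vehicle and 6.30, 6.07, 5.55, 6.29 and 6.005 with tunicamycin. In WT livers the groups met at the edge, with 1 treated liver (replicate 3) just above the lowest vehicle livers, and in NFIL3 KO livers they did not overlap. Mpi fell by 0.51 ± 0.14 in WT (adjusted p = 0.00745) and by 0.60 ± 0.14 in NFIL3 KO livers (adjusted p = 0.0019).

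Dolichol-phosphate mannose synthase, which loads mannose onto the lipid for the luminal steps, had subunits with different calls. Dpm2, a regulatory subunit, rose by 0.82 ± 0.11 in WT and 0.83 ± 0.11 in NFIL3 KO livers, and the catalytic Dpm1 had differences of 0.17 (adjusted p = 0.0813) and 0.18 (adjusted p = 0.0692) that were not called. Dpm1 was called as risen in both genotypes among genes above the median level (adjusted p = 0.0267 in WT and 0.0213 in NFIL3 KO) and without moderation (0.00638 and 0.00484), and in NFIL3 KO livers, where its groups did not overlap, also with a trended and robust variance (0.0441). Dpm3, the subunit that holds Dpm1 at the membrane, read 5.05, 5.35, 4.92, 5.20 and 5.00 in WT vehicle and 4.34, 4.57, 4.71, 4.73 and 5.04 in WT tunicamycin livers, and 4.90, 4.96, 5.22, 5.27 and 5.04 with vehicle and 5.04, 4.68, 4.68, 4.93 and 4.82 with tunicamycin in NFIL3 KO livers. Its treated and vehicle livers overlapped in both genotypes. It fell by 0.43 ± 0.12 in WT livers (adjusted p = 0.00864), and its difference of -0.25 in NFIL3 KO livers was not called (adjusted p = 0.147). The probesets of Dpm3 and Uggt2 had means over the 20 arrays at or below the median of all genes (5.01), and no other member did. Alg5, which makes dolichol-phosphate glucose, had differences of -0.25 and -0.18 and was not called.

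Genes of the lipid carrier were divided in the same manner, with 3 of 5 risen in each genotype and the others fallen or not called. Dhdds and Nus1 make the subunits of the cis-prenyltransferase that builds the long chain of dolichol. Dhdds read 7.76, 7.69, 8.07, 7.93 and 8.04 in WT vehicle and 9.50, 9.43, 9.44, 9.65 and 9.49 in WT tunicamycin livers, and 7.91, 7.89, 8.12, 7.86 and 8.32 with vehicle and 9.30, 9.25, 9.17, 9.48 and 9.54 with tunicamycin in NFIL3 KO livers. The groups stood apart in both genotypes, with rises of 1.60 ± 0.11 in WT (3.04-fold, adjusted p = 5.78e-11) and 1.33 ± 0.11 in NFIL3 KO livers. Nus1 rose by 1.15 ± 0.08 and 1.11 ± 0.08, and Dolpp1, the phosphatase that recycles dolichol pyrophosphate, by 1.15 ± 0.17 and 0.94 ± 0.17. The remaining genes of the group act at the end of dolichol synthesis and were not called as risen.

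Srd5a3 reduces polyprenol on the way to dolichol, and Dolk adds the phosphate that makes dolichol a carrier. Srd5a3 read 6.85, 6.93, 7.11, 7.06 and 7.04 in WT vehicle and 6.96, 6.95, 7.01, 6.85 and 6.68 in WT tunicamycin livers, and 7.08, 6.71, 6.68, 6.74 and 7.18 with vehicle and 6.74, 6.61, 6.59, 6.53 and 6.41 with tunicamycin in NFIL3 KO livers. Dolk read 6.57, 6.38, 6.72, 6.65 and 6.64 with vehicle and 6.44, 6.38, 6.30, 6.08 and 6.14 with tunicamycin in WT livers, and 6.47, 6.27, 6.70, 6.66 and 6.46 with vehicle and 6.56, 6.24, 6.01, 5.89 and 6.20 with tunicamycin in NFIL3 KO livers. The ranges of treated and vehicle livers overlapped for both genes in both genotypes. Srd5a3 fell in NFIL3 KO livers (-0.30 ± 0.10, adjusted p = 0.0324) and not by the test in WT livers (-0.11, adjusted p = 0.527). Dolk fell by 0.33 ± 0.12 in WT (adjusted p = 0.0416) and 0.33 ± 0.12 in NFIL3 KO livers (adjusted p = 0.0386). These calls were near the threshold and did not hold when single arrays were left out, with adjusted p up to 0.117 for Srd5a3 in NFIL3 KO livers (without NFIL3 KO vehicle replicate 1 or 5, or tunicamycin replicate 4 or 5) and up to 0.109 in WT and 0.13 in NFIL3 KO livers for Dolk (without WT vehicle replicate 1, 3, 4 or 5 or tunicamycin replicate 3, 4 or 5 in WT, and without NFIL3 KO vehicle replicate 1, 3, 4 or 5 or tunicamycin replicate 2, 3, 4 or 5 in NFIL3 KO livers).

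**Figure D2:**
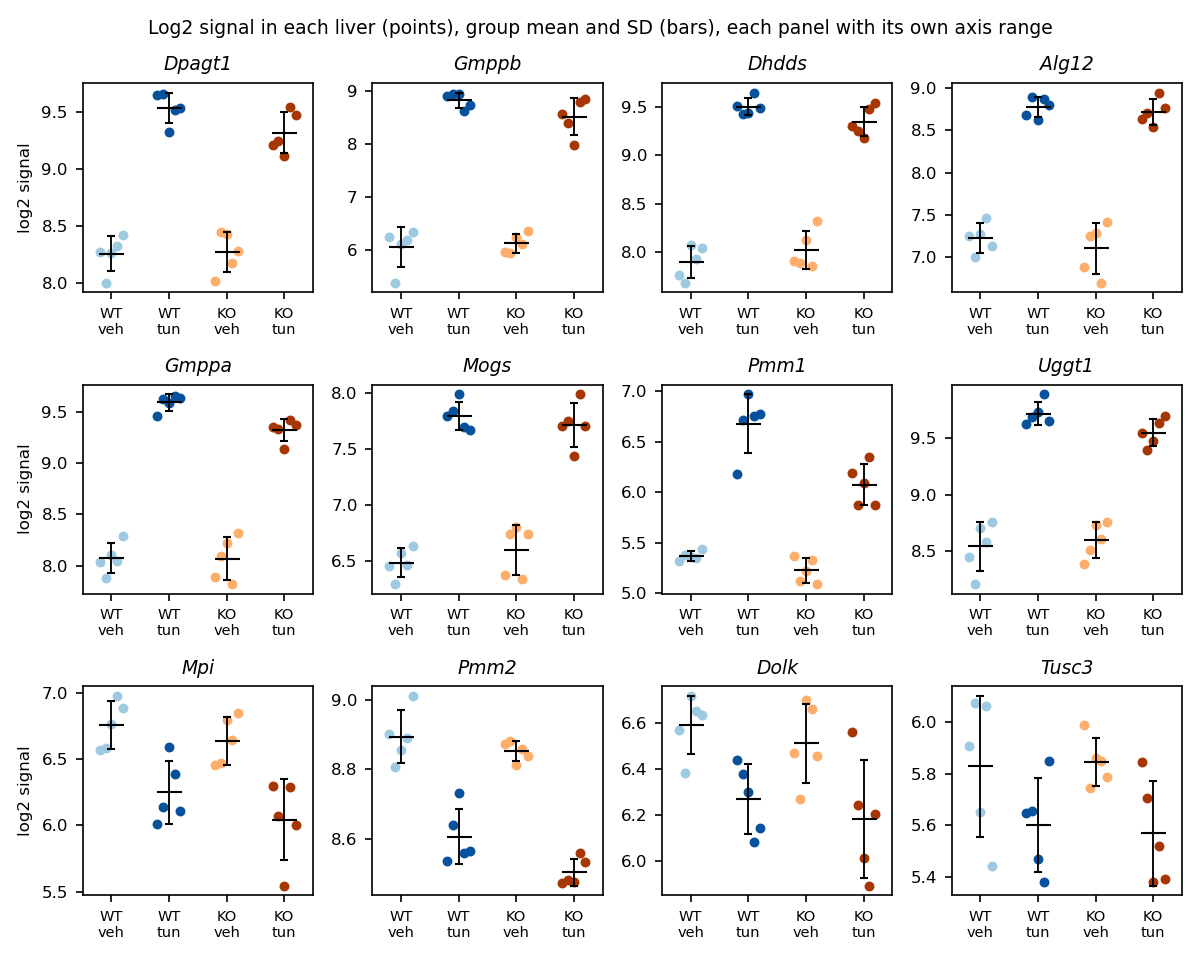
Log2 signal (y axis, a separate range in each panel) in each of the 5 livers per group (points), with the group mean and SD (bars), for 12 of the genes; veh is vehicle, tun is tunicamycin and KO is NFIL3 KO. In the upper 2 rows the treated livers stand above the vehicle livers in both genotypes (Gmppb 5.40 to 6.36 with vehicle and 7.98 to 8.94 with tunicamycin), whereas the treated livers lie below for Pmm2 and overlap the vehicle livers for Dolk and Tusc3.

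Oligosaccharyltransferase moved almost as a whole, with 9 of its 10 genes risen in each genotype and none fallen. The subunits shared by all forms of the complex rose, namely Rpn1 (1.00 in WT and 0.85 in NFIL3 KO), Ddost (1.03 and 0.86), Rpn2 (0.54 and 0.33) and Dad1 (0.43 and 0.50). So did Ostc (0.72 and 0.77) and Krtcap2 (0.86 and 0.88), subunits of the form that works at the translocon. The catalytic subunits are Stt3a, for glycosylation during translocation, and Stt3b, which also reaches sites that Stt3a has passed over.

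Stt3a read 10.40, 10.37, 10.47, 10.41 and 10.51 in WT vehicle and 11.57, 11.53, 11.45, 11.64 and 11.58 in WT tunicamycin livers, and 10.41, 10.50, 10.47, 10.46 and 10.68 with vehicle and 11.42, 11.37, 11.41, 11.50 and 11.66 with tunicamycin in NFIL3 KO livers. Stt3b read 9.13, 9.22, 9.39, 9.16 and 9.45 with vehicle and 10.44, 10.45, 10.35, 10.39 and 10.35 with tunicamycin in WT livers, and 9.14, 9.18, 9.33, 9.20 and 9.41 with vehicle and 10.35, 10.26, 10.25, 10.47 and 10.53 with tunicamycin in NFIL3 KO livers. Both genes were higher in every treated liver than in any vehicle liver of the same genotype. Stt3a rose by 1.12 ± 0.08 in WT and 0.97 ± 0.08 in NFIL3 KO livers, and Stt3b by 1.13 ± 0.09 and 1.12 ± 0.09.

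Tusc3 was the exception in the complex. Tusc3 and Magt1 are alternative oxidoreductase subunits of the Stt3b form. Magt1 read 9.46, 9.63, 9.32, 9.35 and 9.31 in WT vehicle and 10.37, 10.25, 10.27, 10.25 and 10.15 in WT tunicamycin livers, and 9.19, 9.44, 9.52, 9.41 and 9.56 with vehicle and 10.13, 10.06, 10.18, 10.16 and 10.26 with tunicamycin in NFIL3 KO livers. Tusc3 read 5.91, 6.07, 5.65, 6.06 and 5.44 with vehicle and 5.65, 5.65, 5.47, 5.38 and 5.85 with tunicamycin in WT livers, and 5.99, 5.74, 5.86, 5.85 and 5.79 with vehicle and 5.85, 5.70, 5.38, 5.52 and 5.39 with tunicamycin in NFIL3 KO livers. Magt1 stood apart between treatments, with rises of 0.84 ± 0.09 and 0.74 ± 0.09, while the livers overlapped for Tusc3, whose differences of -0.23 and -0.28 were not called (adjusted p = 0.201 and 0.112). The call depended on single arrays, since Tusc3 fell by the test without WT vehicle replicate 5 in WT livers (adjusted p = 0.0478) and without NFIL3 KO tunicamycin replicate 1 in NFIL3 KO livers (adjusted p = 0.0496).

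Trimming and the calnexin cycle rose in every one of its 7 genes in WT livers and in 6 in NFIL3 KO livers. Mogs, the glucosidase that removes the outermost glucose, read 6.45, 6.29, 6.57, 6.46 and 6.63 in WT vehicle and 7.79, 7.84, 7.99, 7.70 and 7.67 in WT tunicamycin livers, and 6.37, 6.73, 6.80, 6.34 and 6.74 with vehicle and 7.70, 7.75, 7.44, 7.99 and 7.70 with tunicamycin in NFIL3 KO livers. It rose by 1.32 ± 0.11 in WT and 1.12 ± 0.11 in NFIL3 KO livers, with no overlap. The next glucosidase has a catalytic subunit, Ganab, and a regulatory one, Prkcsh. Prkcsh rose by 0.64 ± 0.10 and 0.44 ± 0.10, and Ganab rose in WT livers (0.39 ± 0.09, adjusted p = 0.00163) and had a difference of 0.21 in NFIL3 KO livers that was not called (adjusted p = 0.0967).

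The glucosyltransferase that marks misfolded glycoproteins is made by Uggt1, and Uggt2 is its paralog. Uggt1 read 8.45, 8.21, 8.71, 8.58 and 8.76 in WT vehicle and 9.62, 9.68, 9.73, 9.89 and 9.65 in WT tunicamycin livers, and 8.39, 8.51, 8.73, 8.61 and 8.76 with vehicle and 9.54, 9.39, 9.47, 9.63 and 9.69 with tunicamycin in NFIL3 KO livers. Uggt2 read 4.29, 3.72, 4.52, 4.27 and 4.37 with vehicle and 5.10, 4.85, 4.95, 4.74 and 4.68 with tunicamycin in WT livers, and 4.34, 3.97, 4.32, 4.37 and 4.64 with vehicle and 5.62, 5.37, 4.94, 5.53 and 5.39 with tunicamycin in NFIL3 KO livers. Both were higher in all treated livers than in any vehicle liver of their genotype, though Uggt2 lay near or below the median of the array. Uggt1 rose by 1.17 ± 0.10 in WT (adjusted p = 7.13e-09) and 0.95 ± 0.10 in NFIL3 KO livers, and Uggt2 by 0.63 ± 0.15 (adjusted p = 0.00197) and 1.05 ± 0.15.

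The lectins rose as well. Canx, for membrane-bound calnexin, read 11.50, 11.60, 11.52, 11.50 and 11.55 in WT vehicle and 11.88, 11.87, 12.00, 12.03 and 12.09 in WT tunicamycin livers, and 11.48, 11.51, 11.59, 11.45 and 11.47 with vehicle and 11.88, 11.96, 11.94, 12.06 and 12.07 with tunicamycin in NFIL3 KO livers. Calr, for soluble calreticulin, read 11.62, 11.45, 11.87, 11.78 and 11.80 with vehicle and 12.83, 12.88, 12.76, 12.83 and 12.87 with tunicamycin in WT livers, and 11.74, 11.73, 11.74, 11.68 and 11.85 with vehicle and 12.68, 12.77, 12.69, 12.72 and 12.83 with tunicamycin in NFIL3 KO livers. Each stood apart between treatments. Canx rose by 0.44 ± 0.07 and 0.48 ± 0.07, and Calr by 1.13 ± 0.08 and 0.99 ± 0.08.

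Whether the RNAs of partner or alternative proteins responded unequally was asked for 6 pairs in each genotype, on the difference of the log2 values of both genes in each liver. An exact two-sided permutation test was used (over all arrangements of 5 and 5 livers, smallest possible p = 0.00794), with adjustment over the 12 tests, and 10 passed. The response of Gmppb exceeded that of Gmppa by 1.25 ± 0.15 in WT and 1.13 ± 0.13 in NFIL3 KO livers, that of Pmm1 exceeded Pmm2 by 1.60 ± 0.11 and 1.20 ± 0.10, and that of Magt1 exceeded Tusc3 by 1.07 ± 0.14 and 1.01 ± 0.15. Calr exceeded Canx by 0.69 ± 0.10 and 0.51 ± 0.05. Each of these 8 tests had an adjusted p of 0.0106 in the exact permutation test. Tusc3 read 5.38 to 6.07 over all livers, not far above the median of all genes (5.01). The part of this low signal in its contrast with Magt1 was not tested. The measured rise of Uggt1 exceeded that of Uggt2 in WT livers by 0.54 ± 0.12 (adjusted p = 0.0106 by the same exact test), and in NFIL3 KO livers the difference was -0.10 ± 0.14 (exact adjusted p = 0.537). Uggt2 read below the median of all genes (5.01) in every vehicle liver, and this contrast does not show that Uggt1 responded more. For Stt3a and Stt3b the difference in response was 0.00 ± 0.05 in WT livers (exact adjusted p = 0.905), and in NFIL3 KO livers Stt3b exceeded Stt3a by 0.15 ± 0.04 (exact adjusted p = 0.019). The difference of these pair contrasts between genotypes was not tested. According to the study, arrays give changes as smaller than they are. Whether both probesets of a pair did so to the same degree was not tested.

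**Figure D3:**
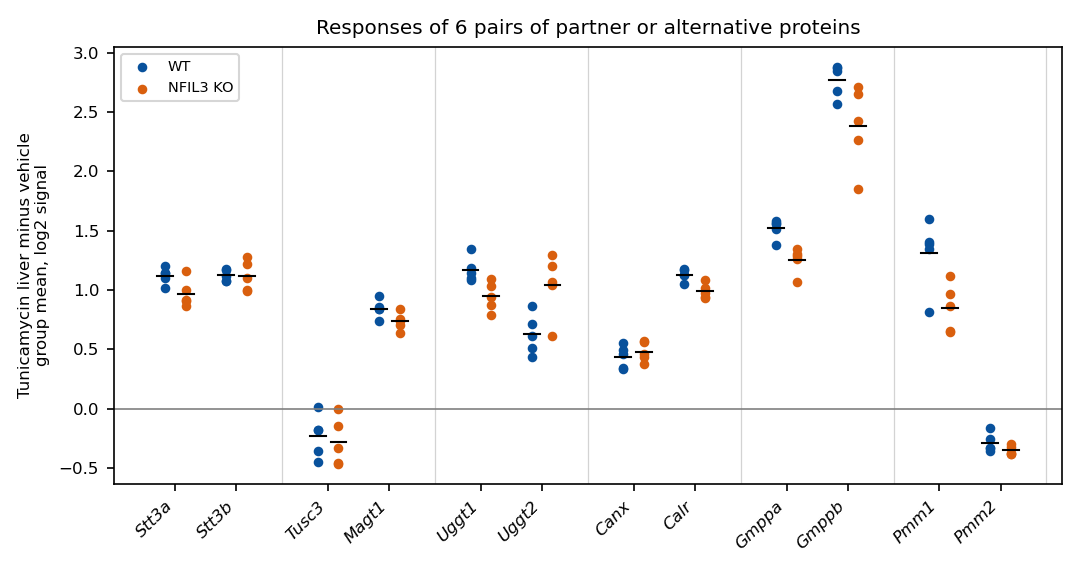
Log2 signal of each tunicamycin liver minus the mean of the 5 vehicle livers of its genotype (y axis) for the genes of 6 pairs (x axis, pairs separated by grey lines) in WT (blue) and NFIL3 KO livers (orange), with 5 points and a black bar for the mean of each. Points of Gmppb lie above those of Gmppa and points of Pmm1 above those of Pmm2 in both genotypes, while Tusc3 lies around or below 0.

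Differences between the genotypes were small beside those of tunicamycin. With vehicle, none of the 44 genes was called between NFIL3 KO and WT livers in limma, where 0.0225% of all genes were called. Of the 44, 1 had an unadjusted p under 0.05, and the differences ran from -0.26 to 0.12 (lowest adjusted p = 0.822). With tunicamycin, 1 of the 44 genes was called, where 0.243% of all genes were called, and 6 had an unadjusted p under 0.05. The share of all genes with such an unadjusted p was not counted. The called gene was Pmm1, whose mean in NFIL3 KO tunicamycin livers lay 0.60 ± 0.12 below that of WT tunicamycin livers (adjusted p = 0.0334). Its NFIL3 KO livers lay between 5.87 and 6.35 and the WT livers between 6.18 and 6.97, so that the groups overlapped through WT replicate 1. The Pmm1 call was lost without WT tunicamycin replicate 2, 3, 4 or 5 or NFIL3 KO tunicamycin replicate 1, 2 or 5 (adjusted p = 0.0549 to 0.109), and when the fit held only the groups compared (adjusted p = 0.284).

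Most other genes leaned the same way without passing the test. With tunicamycin, 39 of the 44 had a lower mean without NFIL3, with a median difference of -0.10 beside -0.00 over all genes. With vehicle, 29 of the 44 had a lower mean without NFIL3 (median -0.03), and 28 of the 44 had a smaller or more negative response without NFIL3 (median -0.06). The 44 genes were read on the same arrays and are not independent, so these counts do not test an effect of genotype. The share of all genes with a lower mean was not counted. Without NFIL3 KO tunicamycin replicate 3, 34 of the 44 had a lower mean, and the median was -0.09. That liver was the lowest of its group in 15 of the 28 genes that rose in both genotypes, and replicate 5 was the highest in 14. Uggt2 lay the other way, higher in NFIL3 KO than in WT tunicamycin livers by 0.51 ± 0.15 (adjusted p = 0.267). The test of whether the response to tunicamycin differed between genotypes called none of the 44 genes, where 0.00902% of all genes were called. The differences of response ran from -0.46 for Pmm1 to 0.42 for Uggt2, 1 gene had an unadjusted p under 0.05, and every adjusted p was 1.

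**Figure D4:**
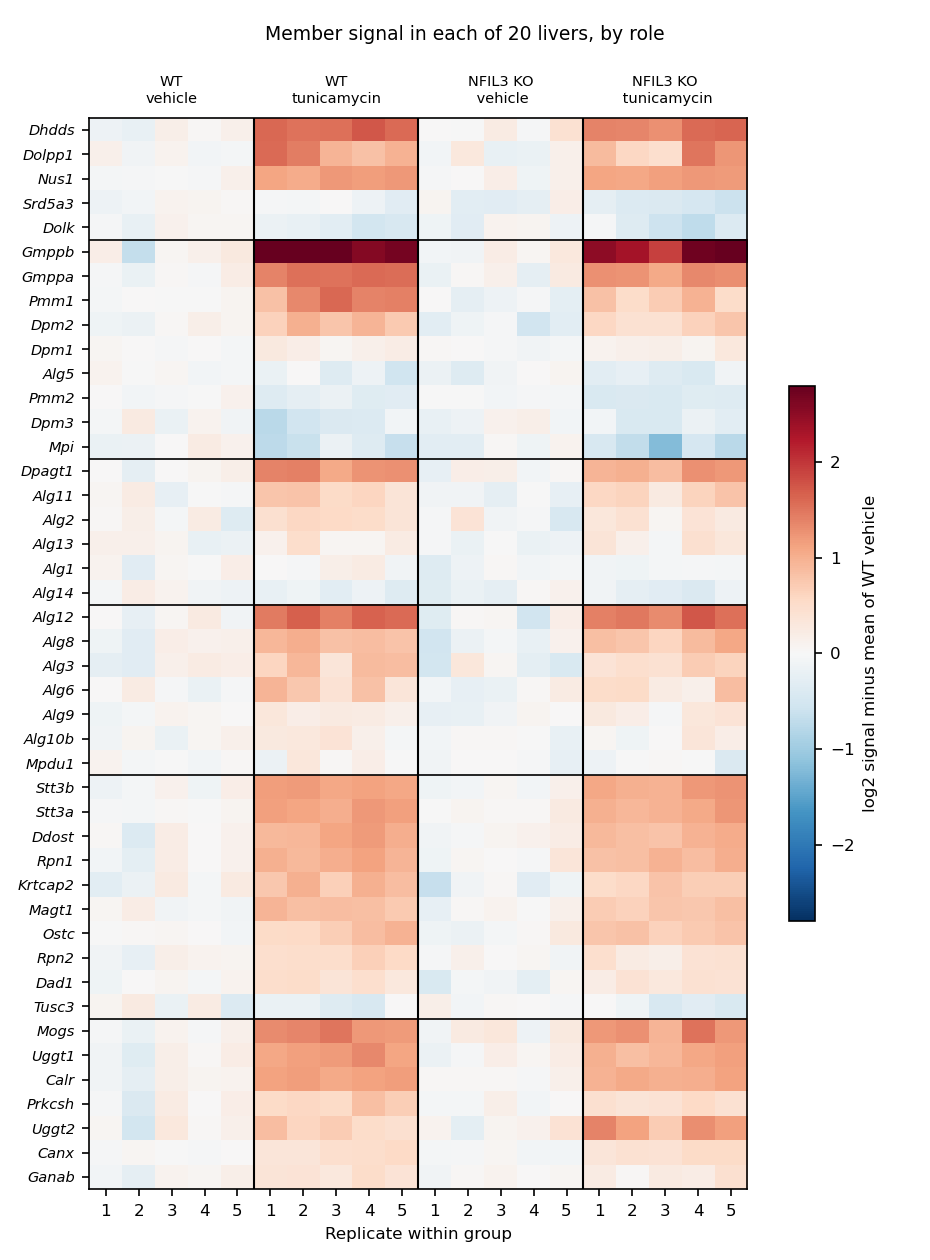
Log2 signal of each of the 20 livers (columns, numbered within their group) minus the mean of the WT vehicle livers for the 44 genes (rows, by role, with black lines between roles), red for higher and blue for lower. Both tunicamycin groups are red over most rows, deepest for Gmppb (the colour scale ends at 2.8), and NFIL3 KO tunicamycin replicate 3 is paler than the others of its group in many rows.

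Genes of neighbouring pathways were set beside the 44. Further ER factors of N-glycans and glycoprotein folding moved like them, with 12 of 16 measured genes risen and none fallen in each genotype, and a median of 0.79 in WT livers. Mcfd2, part of a cargo receptor for glycoproteins leaving the ER (1.93 ± 0.13), and Engase, a cytosolic enzyme that cleaves N-glycans from proteins (1.74 ± 0.13), rose most. The hexosamine pathway, which makes the UDP-N-acetylglucosamine used by Dpagt1, had 4 of 7 genes risen and 2 fallen in each genotype (median 0.92 in WT). Gfpt1, its rate-limiting enzyme, rose by 3.01 ± 0.10 in WT and 2.73 ± 0.10 in NFIL3 KO livers, and Gnpnat1 by 1.19 ± 0.13 and 1.34 ± 0.13. Nagk (-0.39 in WT) and Amdhd2 (-0.34), which act on N-acetylglucosamine from breakdown, fell.

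Among Golgi enzymes that process the same glycans after the ER, more genes fell than rose in both genotypes. In WT livers 4 of 24 rose and 6 fell (median -0.05), beside 13.7% of all genes in each direction, and in NFIL3 KO livers 2 rose and 4 fell (median -0.13), beside 13.5% risen and 13.7% fallen. These shares of all genes stand beside the counts of the lists below as well. Mgat2, an N-acetylglucosaminyltransferase of complex glycans (0.96), and Slc35c1, the GDP-fucose transporter (0.73), had the largest rises in WT livers, and St3gal4, a sialyltransferase (-1.41), and Man2a1, a Golgi mannosidase (-1.03), the largest falls. Synthesis of GPI anchors, which draws on dolichol-phosphate mannose as well, had 4 risen and 4 fallen of 22 genes in WT livers (median 0.05) and 5 risen and 4 fallen in NFIL3 KO livers. One of them, Piga, for the catalytic subunit of the first step, rose by 3.07 ± 0.14 in WT and 2.93 ± 0.14 in NFIL3 KO livers, above any of the 44 genes in size. Pigm, the first mannosyltransferase of the anchor, rose by 0.96 ± 0.12, and Pgap1, which removes a fatty acid from its inositol, fell by 1.93 ± 0.15 in WT livers, as did Pigx (-0.46), a partner of Pigm.

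O- and C-mannosylation, which also use dolichol-phosphate mannose, had 1 of 12 genes risen and 3 fallen in WT livers and 2 and 2 in NFIL3 KO livers, with a rise of Pomgnt1 (0.99 in WT) and falls of Dpy19l3 (-0.93) and Tmtc4 (-0.84). Mucin-type O-glycosylation, which needs no dolichol, had 2 of 12 risen and 2 fallen in WT livers and 2 and 1 in NFIL3 KO livers, shares near those of all genes (13.7% each way in WT), with Galnt2 (0.60 in WT) and Galnt7 (0.31) risen and Galnt1 (-0.62) and Galnt4 (-0.27) fallen in WT livers. In WT livers, medians of the Golgi, GPI, mannosylation and mucin lists lay between -0.05 and 0.15, beside 0.64 for the 44 genes. Steps of the GPI and mannosylation lists also take place in the ER, and differences between lists were not tested.

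**Figure D5:**
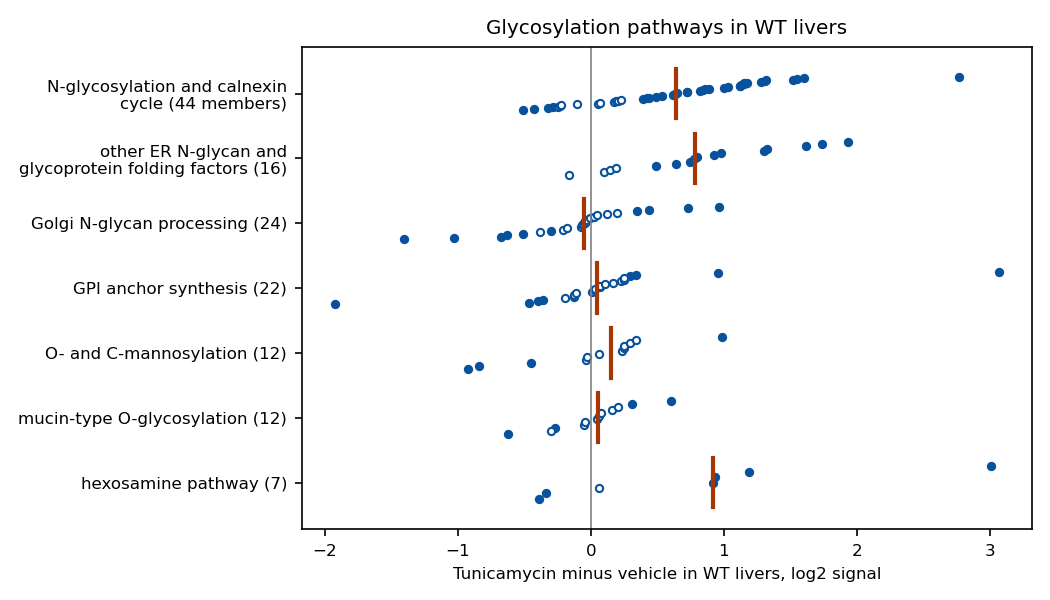
Difference between tunicamycin and vehicle in WT livers (log2 signal, x axis) for each gene (point, filled if called) of the 44 and of 6 neighbouring lists (y axis, number of genes measured in parentheses), with a brown line at each median. The medians of the 44 genes (0.64), of the other ER factors (0.79) and of the hexosamine pathway (0.92) lie to the right of 0, and those of the other 4 lists lie near 0.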

How the data were processed

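Liver RNA was hybridized to mouse gene arrays, 1 per mouse. According to the submitters' processing notes and the study's methods, the authors background-corrected, quantile-normalized and summarized the signals by RMA with median polish in Partek, and the deposited values are log2 signals of 41345 probesets. Normalization of this kind gives all arrays near-equal distributions (medians 4.65 to 4.77), so that a shift of the whole transcriptome would not show. Probesets with 1 symbol (23521) were averaged into 22180 genes. A linear model of group means over all 20 arrays (limma 3.58.1, with eBayes, under R 4.3.3) gave 5 two-sided contrasts with Benjamini-Hochberg adjustment over all genes. The fit was tested on simulated data. No batch, day or litter is named in the labels. The number of arrays, 5 per group, limits the precision, and each liver came from a separate mouse. Arrays with the same replicate number did not deviate together, and the main fit used no pairing. The sources used here do not say how replicates were numbered.

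The members and all lists were chosen with earlier results of these data known. Values of every liver are given for Dpagt1, the 8 largest changes in WT livers, genes that fell, genes called between genotypes and 6 pairs, and from each further list up to 2 called genes with the largest rise and 2 with the largest fall are named. Counts of a list are over its genes with a probeset of that symbol alone, and its other genes were not analysed here. Alternatives were other normalizations, filters, variance models and left-out arrays.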

Additional observations from a re-analysis of the deposited data

Results flagged for a closer look

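Among the 5 livers of each group, a value was picked out when its gap to the nearest other value was over 0.71 of the range of the group (Dixon's critical value). Over 176 combinations of gene and group this met 2 values, fewer than the 8.8 that chance gives (about 1 in 20). Gmppb in WT vehicle replicate 2 was low at 5.40 (5.3987), beside 6.12 to 6.34 in the other 4 livers. Nus1 in WT vehicle replicate 5 was high at 9.09 (9.0887), beside 8.88 to 8.93. No member moved in opposite directions in all livers of the genotypes.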

How the results depend on the processing

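Across the alternatives other than left-out arrays, 25 to 32 genes rose in WT and 23 to 32 in NFIL3 KO livers, the lowest counts with a minimum change of 1.5-fold. That minimum left 0 of the 4 falls in WT and 1 of the 4 in NFIL3 KO livers, and 2 falls were left in NFIL3 KO livers in a fit of only the groups compared and with the replicate number as a block. Without 1 array, 30 to 31 genes rose and 3 to 5 fell in WT, and 29 to 31 rose and 2 to 5 fell in NFIL3 KO livers. The call of Pmm1 between genotypes with tunicamycin was lost (0 genes called) without moderation (adjusted p = 0.0662), in a fit of only the groups compared (0.284), with the replicate block (0.0609) and over probesets (0.0992), and left-out arrays gave 0 to 1 genes. No alternative called a gene with vehicle or for the difference of response. With the block, 30 genes rose and 3 fell in WT, and 31 rose and 2 fell in NFIL3 KO livers. Arrays with the same number did not deviate together (correlations from -0.14 to 0.10, 2 of 30 over 0.1). Of the 20 arrays, 0 correlated best with their own number in all other groups at once. That count is strict and would miss a match in only some of the groups. The pairs gave 10 passed tests without any 1 array, and 0 with the replicate block, where an exact sign test over 5 pairs of livers cannot go below 0.0625. Among members and pairs, signs turned only for values near 0: Alg1 in WT livers was -0.0090 with cyclic loess and -0.0304 to 0.0970 without 1 array, Alg1 in NFIL3 KO livers -0.0113 to 0.0879, Mpdu1 in NFIL3 KO livers -0.0759 to 0.0395, and Stt3a minus Stt3b in WT livers 0.0227 with cyclic loess and -0.0293 to 0.0215 without 1 array. Beyond the calls named above, leaving out 1 array gained a call for Alg10b in WT livers (without WT tunicamycin replicate 5, adjusted p = 0.0468), Alg5 in WT (WT tunicamycin 2, 0.0309), Alg9 in WT (NFIL3 KO tunicamycin 3, 0.0326), Ganab in NFIL3 KO (NFIL3 KO tunicamycin 2, 0.0451) and Alg2 in NFIL3 KO livers (WT vehicle 5, NFIL3 KO vehicle 2 or NFIL3 KO tunicamycin 3, up to 0.0431). Among genes above the median level only, calls were gained for Dpm1 in both genotypes, for Alg5 (0.0394), Alg9 (0.0239) and Alg14 (0.0498) in WT and for Alg2 (0.0294) and Ganab (0.0406) in NFIL3 KO livers, of which Alg5 and Alg14 fell. With cyclic loess, the limma fit also called Alg5 (-0.30, adjusted p = 0.0201) and Alg14 (-0.28, adjusted p = 0.0318) as fallen in WT livers, where 6 genes then fell. The cause of these shifts was not tested. Of the values of single genes and pairs under alternatives, 2768 kept direction and side of the threshold, 50 lost a call, 25 gained one and 10 changed sign.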
